A study of Mus musculus with 16 samples.

Results

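The interaction of hypercholesterolaemia and hypertension in the mouse aortic valve was measured gene by gene as a difference of differences: the hypertension effect in ApoE knockout mice minus the hypertension effect in mice with ApoE intact. It was computed on the log2 scale from the deposited normalised counts of 15 of 16 samples, and 15004 of 20992 genes passed the filter on low values. A value of 0 means that the 2 models add on the log2 scale. A positive interaction means that the combined model lay above that sum, and a negative one that it lay below.

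RNA was sequenced from aortic valves of mice on the strain background C57BL/6J. Controls (CON) were 4 mice, 1 female and 3 males. The hypertension model (HT), 2 females and 2 males, carried transgenes that overexpress human renin and human angiotensinogen. The hypercholesterolaemia model (HC), 3 females and 1 male, was the ApoE knockout, and 3 mice, 2 females and 1 male, carried both (HC/HT). The promoters that drive the transgenes, the ages, the diet and the blood pressures are not given in the sources used here. Each library is taken as 1 mouse, and nothing states whether the mice of a group shared a litter, so the p-values measure the spread between these samples.

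Renin cleaves angiotensinogen, and the product is converted to angiotensin II, which raises blood pressure and acts on vessel and valve cells through its receptor. ApoE carries cholesterol-rich remnants to their receptors, and mice that lack it accumulate cholesterol in plasma and foam cells in the arterial wall. Both conditions are known companions of fibrous thickening of the valve leaflet, a tissue of interstitial cells, endothelium, resident immune cells and pigment cells in a matrix of collagen, proteoglycan and elastin.

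The design and the libraries limit what the interaction can show. Each library listed 16006 to 17608 genes above 0, and 4 rows led by a ribosomal RNA precursor took 32.4% to 62.7% of each total. With hypertension this share averaged 54.4 ± 9.63% against 41.6 ± 11.2% where ApoE was intact (HT and CON, SD over 4 mice each). In knockouts it averaged 50.9 ± 4.87% over the 3 HC/HT mice against 41.4 ± 8.86% over the 4 HC mice. HC and HC/HT carry library numbers up to 7 in the labels and CON and HT numbers from 9, so ApoE genotype and library number cannot be told apart, while each hypertension effect lies within 1 of the 2 number ranges. In bulk tissue fewer cells of a type and less RNA per cell cannot be told apart. Apoe itself matched the labels, at 398 to 1014 units in CON and 56.6 to 609 in HT against 2.15 to 12.3 in the 7 knockout libraries. 1 unit is a millionth of the median library total.

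No gene was called non-additive. With limma, 0 of 15004 genes (0%) had an adjusted p under 0.05 (Benjamini-Hochberg) in either direction. The smallest adjusted p was 1.00 and the smallest unadjusted p was 0.000591. An unadjusted p under 0.05 was reached by 207 genes (1.38%), fewer than the 750.2 genes that are 5% of those tested. These were 172 genes with a positive interaction (1.15%) and 35 with a negative one (0.233%). Leaving out HT replicate 4, CON replicate 4, HC/HT replicate 3 or HT replicate 1 moved the 207 to 450, 441, 421 or 370, and no gene passed in any of these. With the 8 females alone, limma called 9 genes, all lower, described with the heart muscle genes.

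The interaction was above 0 for 10768 genes (71.8%) and its median was 0.23, with 90% of genes between -0.56 and 0.93. That median depends on the scaling: it was -0.01 with median-of-ratios factors, 0.00 with quantile normalisation, and 0.13 when totals were taken without the 4 most abundant rows. Counts of positive genes in a list are therefore given beside the 71.8% of all genes above 0 or beside the count above the median of all genes. The part of the ribosomal share in the size of single interactions was not tested.

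The standard error of the interaction had a median of 0.58 log2, against 0.39 for HT minus CON and 0.42 for HC/HT minus HC. The median half-width of the 95% interval was 1.18, with 80% of genes between 0.94 and 1.47. A gene of typical precision thus needed an interaction beyond that half-width for its own interval to leave out 0. The hypertension effects themselves called no gene either, although limma with array weights called 412 genes for HT minus CON and 2 for HC/HT minus HC. HT minus CON had 0 called genes (0%), 1922 with an unadjusted p under 0.05 (12.8%), and a smallest adjusted p of 0.180. HC/HT minus HC had 0 called genes (0%), 661 with an unadjusted p under 0.05 (4.41%), and a smallest adjusted p of 0.152. Without HC/HT replicate 3 the last comparison called 3 genes, and without HC replicate 4 each of them called 2.

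Most genes lay below 0 in both hypertension effects as deposited. HT minus CON was above 0 for 2001 genes (13.3%), with a median of -0.42, and HC/HT minus HC for 4592 genes (30.6%), with a median of -0.18. With median-of-ratios factors these medians were -0.01 and -0.02. Across the 15004 genes the 2 effects had a Pearson r of 0.35 and a Spearman rho of 0.31, given as a description over genes, which are not independent. The effects use different libraries but share the sex term and the scaling. Pearson's r was 0.21 without HC/HT replicate 3 and 0.16 with females alone. Relative to each median, 61.0% of genes lay on the same side in both effects.

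**Figure D1:**
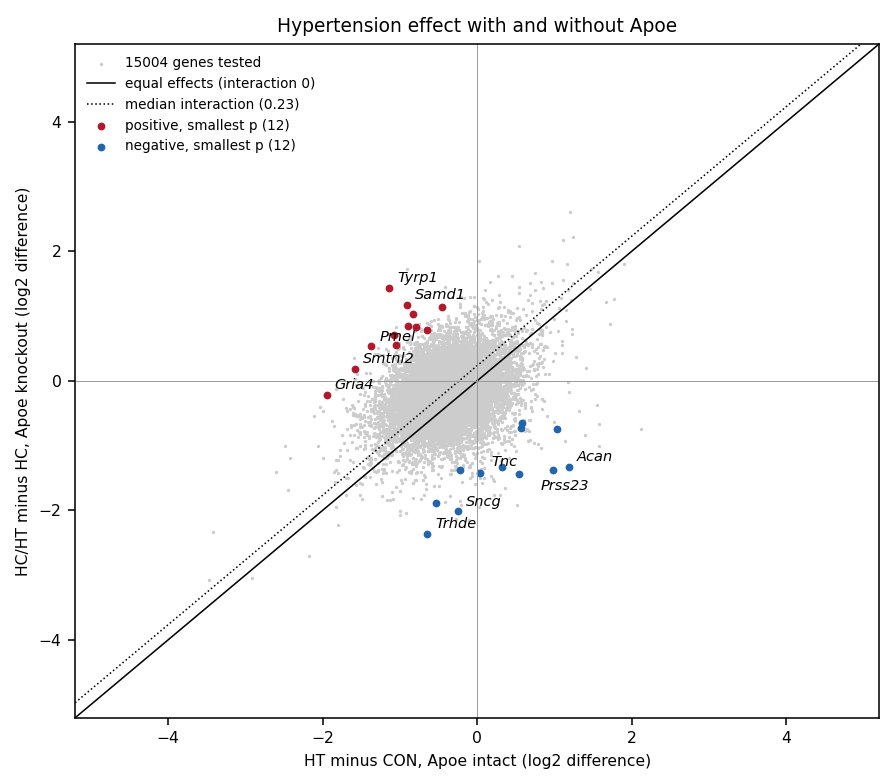
Hypertension effect with ApoE intact (x axis, HT minus CON, log2) against the effect in ApoE knockouts (y axis, HC/HT minus HC, log2), 1 point per gene for 15004 genes, with the 12 genes of smallest p in each direction coloured. The solid line marks an interaction of 0 and the dotted line the median of 0.23, and the coloured genes lie at the edges of 1 cloud with no separate group.

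The 24 genes with a symbol, a highest group mean of 5 units or more and the smallest interaction p were 12 positive and 12 negative. None passed the test. Their hypertension effects had opposite signs in 19 of 24: 11 positive genes were lower in HT than in CON and higher in HC/HT than in HC, and 8 negative genes were the reverse. In 14 of 24 the highest group mean was at most 10 units. The sign of the interaction was the same in units as in log2, and the same under all alternatives run for it, in 24 of 24. The choice by smallest p favours extreme values, and with them opposite hypertension effects and a sign that holds when the same libraries are refitted. The sizes, the 19 of 24 and the 24 of 24 are therefore descriptions and lend these genes no support. No share over all genes is given beside them.

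**Figure D2:**
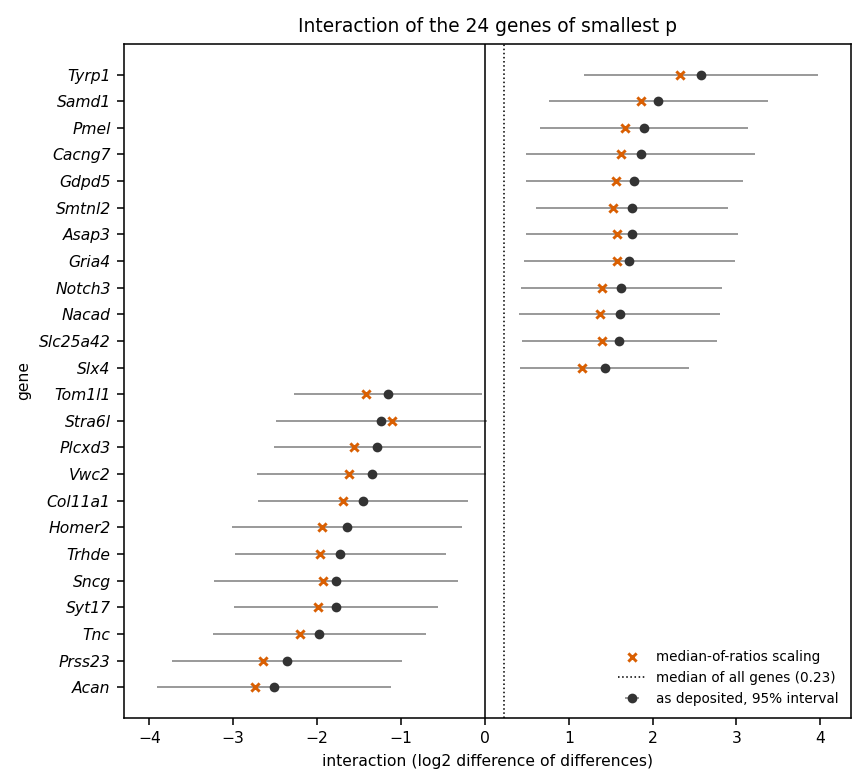
Interaction (log2 difference of differences) of the 24 genes of smallest p, as points with 95% intervals, and with median-of-ratios factors as crosses; the dotted line is the median of all genes at 0.23. Intervals run from -3.90 to 3.97, and those of Vwc2 and Stra6l reach past 0.

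The pigment cell genes Tyrp1 and Pmel were among the 12 positive genes of smallest p. Melanocytes are a normal minority of cells in the mouse valve, and their enzymes and melanosome proteins are switched on through the factor Mitf, which binds a short motif with the core CATGTG. The windows before the start sites of Tyrp1 and Dct are printed because these 2 genes are abundant members of the list and both hold that core, shown in capitals. They are 250 bases, 5′ to 3′ on the gene's strand, ending at the base before the start, from RefSeq on GRCm38.p6 at chr4:80833963-80834212 (Tyrp1, plus strand) and chr14:118052247-118052496 (Dct, minus strand).
Tyrp1: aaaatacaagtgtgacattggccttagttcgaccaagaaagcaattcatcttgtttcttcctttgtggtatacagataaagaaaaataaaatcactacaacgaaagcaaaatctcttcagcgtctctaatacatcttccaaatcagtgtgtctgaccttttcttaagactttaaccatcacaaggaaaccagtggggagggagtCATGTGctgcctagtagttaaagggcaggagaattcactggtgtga
Dct: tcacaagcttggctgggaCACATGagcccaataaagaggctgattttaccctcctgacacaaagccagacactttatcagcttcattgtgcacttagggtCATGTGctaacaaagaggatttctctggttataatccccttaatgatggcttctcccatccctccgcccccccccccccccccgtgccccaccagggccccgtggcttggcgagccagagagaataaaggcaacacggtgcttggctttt
The core stood 46 bases before the RefSeq start of Tyrp1, which lies inside the gene span that GENCODE gives, and, in 2 copies with the nearer at 150 bases, before Dct. Read on both strands (CATGTG or CACATG), it was found in 4025 of 32851 windows of all genes (12.25%). Of the 12 listed pigment genes 7 had a window, and the 5 with the core were Dct, Oca2, Trpm1, Tyr and Tyrp1. These are counted by gene, with the core in at least 1 window, while 12.25% is a share of windows. The 2 are not like measures. A match is a string of letters and not a binding site.

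Tyrp1 (chr4:80834123-80851736), a melanosome enzyme of eumelanin synthesis, stood at 27.7, 17.3, 43.9 and 18.3 units in CON and at 16.8, 8.82, 6.37 and 12 in HT. It stood at 20.7, 28.7, 26.8 and 9.70 in HC and at 59.6, 125 and 23.7 in HC/HT. All HT values lay below all CON values, while HC/HT overlapped HC through replicate 3. The HC/HT mean was 69.5 ± 51.5 (SD, n = 3), against 21.5 ± 8.57 in HC (n = 4). The interaction was 2.58 ± 0.67 (SE; 95% interval 1.18 to 3.97; limma unadjusted p = 0.000937), and it ranged from 1.87 to 3.25 as each library was left out. If the log2 effects added, the geometric level in HC/HT would have been 8.17 units, and it was 56.4, both without the sex term.

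Pmel (chr10:128695888-128720238), whose product forms the fibrils on which melanin is laid down, had its lowest mean in HT and its highest in HC/HT, as Tyrp1 did. It was at 21.6, 10.9, 13.5 and 8.03 units in CON and 6.66, 3.13, 5.49 and 2.35 in HT. It was at 13.5, 16.8, 19.1 and 7.35 in HC and 27.3, 28.2 and 10.4 in HC/HT. HT lay wholly below CON, and 2 of 3 HC/HT libraries lay above every HC library. The interaction was 1.90 ± 0.61 (SE; 95% interval 0.65 to 3.14; unadjusted p = 0.00408).

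Dct (chr14:118012790-118052246), dopachrome tautomerase of the same pigment pathway, had other group levels. They were 118, 64.3, 96.9 and 50.5 units in CON, 43.9, 33.7, 6.37 and 51.2 in HT, 68.9, 94.2, 107 and 49.9 in HC, and 74.1, 88.8 and 83.4 in HC/HT. The 3 HC/HT values fell inside the HC range, and the low group was HT, where replicate 3 was far below the rest. Its interaction was 1.66 ± 0.73 (SE; unadjusted p = 0.0365), with a range of 0.84 to 2.11 as libraries were left out.

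Kit, the receptor that melanoblasts and mast cells depend on, was at 12.9, 27.8 and 14.8 units in HC/HT, above all other libraries, which lay between 1.67 and 10.6. Its interaction was 1.55 ± 0.60 (SE; unadjusted p = 0.0144). Trpm1, a melanocyte channel, had an interaction of 1.28 ± 0.61 (unadjusted p = 0.0438). Dct, Kit and Trpm1 were named after their values were seen, as the other listed pigment genes under an unadjusted p of 0.05.

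Of the 12 listed pigment genes 10 passed the filter. Their interaction was positive, and above the median of all genes, in 10 of 10, with a median of 1.15 (0.98 with median-of-ratios factors) against 0.23 for all genes, and 0 passed the adjusted test. The list median stayed between 0.73 and 1.41 as each library was left out. The median hypertension effect was -0.64 with ApoE intact and 0.24 in knockouts. Oca2 and Gpr143 were below the filter, at group means under 1 unit. The factors Mitf (0.28) and Sox10 (0.31) sat near the median of all genes, as did Tyr (0.47) and Mlana (0.44), while the 5 genes above and Slc45a2 (1.02) lay higher. The mean log2 level of the list was 2.92 to 4.22 in CON, 2.01 to 3.09 in HT, 3.08 to 3.96 in HC and 3.72 to 4.34 in HC/HT.

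Neighbouring cell types were read beside the pigment genes. The nerve and Schwann cell list, which shares a neural crest origin with melanocytes, had a median interaction of 0.24 over 12 tested members (0.01 with median-of-ratios factors). The list of B cells, plasma cells, neutrophils and mast cells, which shares Kit, had 9 of 21 members tested, all 9 positive and above the median of all genes, with a list median of 0.66 (0.86 with median-of-ratios factors). That list median ran from 0.35 to 1.33 as each library was left out. The list's mean level was 3.80 in CON replicate 4 and 1.07 to 1.86 in the other CON libraries. It was 0.66 to 1.87 in HT, 1.53 to 2.64 in HC and 1.31 to 2.65 in HC/HT. Mcpt4, a mast cell protease also able to form angiotensin II, was at 18.9 units in CON replicate 4 and at 7.44 or less in each of the other 14 libraries. The part of differing cell content in the pigment gene values was not tested.

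**Figure D3:**
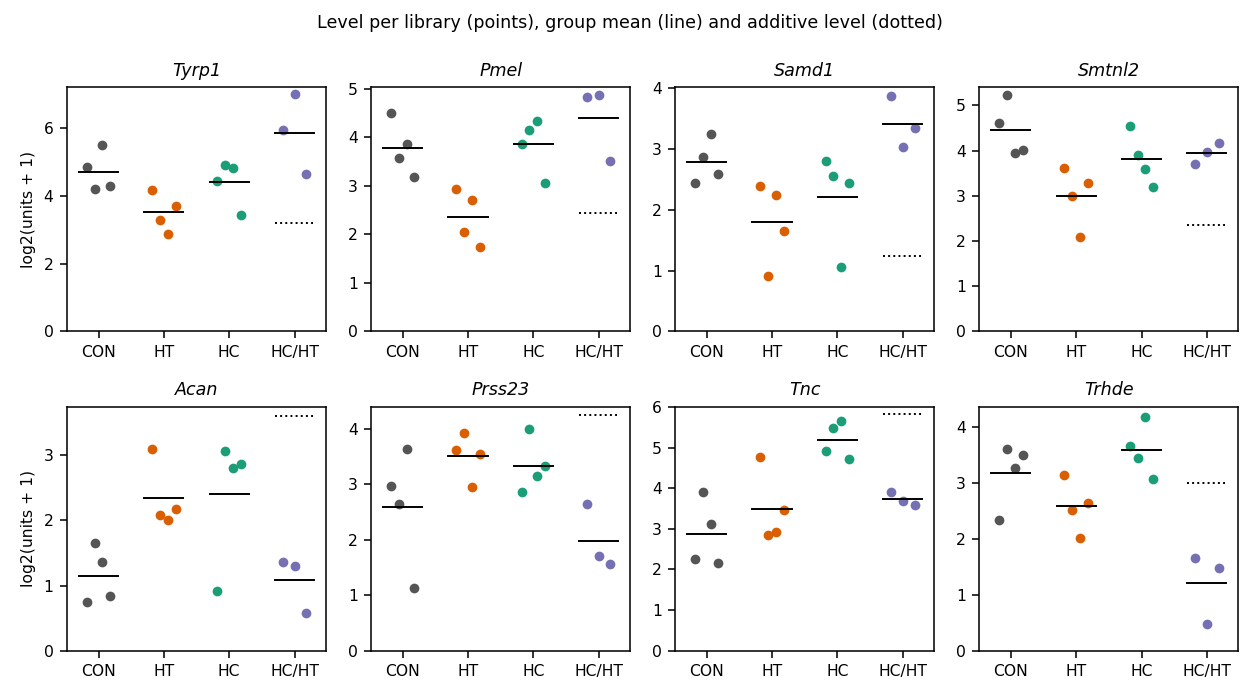
Level of 8 genes in each library (points, log2 of units plus 1), with group means (solid lines) and the level that HC/HT would have if log2 effects added (dotted). The upper row holds positive interactions, where HC/HT lies above the dotted line, as for Tyrp1 at 56.4 against 8.17 units, and the lower row negative ones, as for Acan at 1.11 against 11.1.

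The matrix genes Acan, Tnc and Col11a1 were among the 12 negative genes of smallest p, and the means of Acan and Tnc were higher than CON in each single model but not higher still in both together. Acan (chr7:79053226-79115099), which encodes aggrecan, the large proteoglycan of cartilage, was at 0.686, 2.15, 1.57 and 0.784 units in CON. It was at 7.54, 3.23, 3.04 and 3.53 in HT, at 0.882, 7.35, 5.98 and 6.27 in HC, and at 1.57, 1.47 and 0.490 in HC/HT. All HT values lay above all CON values, and 3 of 4 HC values did, while HC/HT lay within or below the CON range. The interaction was -2.51 ± 0.68 (SE; 95% interval -3.90 to -1.12; limma unadjusted p = 0.000917), ranging from -2.97 to -2.13 as each library was left out. The additive level was 11.1 units and the observed geometric level 1.11. All of these levels are low.

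Tnc (chr4:63959785-64047015) encodes tenascin C, a matricellular protein of wound and remodelling tissue. It was at 3.82, 14.0, 7.74 and 3.43 units in CON and 26.3, 6.17, 6.56 and 9.99 in HT. In HC it was at 29.2, 43.9, 49.6 and 25.3 and in HC/HT at 13.9, 12 and 11.1. HC and HC/HT did not overlap, with means of 37.0 ± 11.6 (SD, n = 4) and 12.3 ± 1.45 (SD, n = 3), whereas HT overlapped CON. The interaction was -1.97 ± 0.62 (SE; 95% interval -3.25 to -0.70; unadjusted p = 0.00355), and HC/HT minus HC alone was -1.43.

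Prss23 (chr7:89507783-89527187), a secreted serine protease, stood at 6.86, 5.29, 11.5 and 1.18 units in CON, 11.4, 14.1, 6.76 and 10.7 in HT, 6.27, 15.0, 7.84 and 9.01 in HC, and 5.29, 2.25 and 1.96 in HC/HT. The HC/HT libraries lay below every HT and every HC library. Its interaction was -2.35 ± 0.67 (SE; 95% interval -3.73 to -0.98; unadjusted p = 0.00149). Trhde, an enzyme that degrades thyrotropin-releasing hormone, was at 2.15, 0.392 and 1.76 units in HC/HT and at 3.04 or more in each of the other 12 libraries. Its interaction was -1.72 ± 0.61 (SE; unadjusted p = 0.00879), and its hypertension effects were -0.64 with ApoE intact and -2.37 in knockouts.

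Col11a1 and Col2a1, fibrillar collagens of cartilage, also had negative interactions from low levels. Col11a1 was at 0.392, 0.196 and 1.08 units in HC/HT and between 1.67 and 9.50 in all others, with an interaction of -1.45 ± 0.61 (unadjusted p = 0.0241). Col2a1 was at 4.02, 1.37, 4.90 and 0.294 units in HT and at 1.47 or less in every other library, with an interaction of -1.79 ± 0.65 (unadjusted p = 0.0106). Spp1, which encodes osteopontin, had the largest negative value among the lists at -2.86 ± 1.37 (95% interval -5.90 to 0.19; unadjusted p = 0.0631). It stood at 4.90, 23.7, 1.76 and 2.06 units in CON, 63.0, 19.6, 51.7 and 9.01 in HT, 140, 735, 2098 and 416 in HC, and 344, 381 and 238 in HC/HT. The HC/HT values lay inside the HC range.

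The lists that hold these genes had medians on either side of 0. Of the osteogenic and chondrogenic list 16 of 20 members were tested, 5 positive and 11 negative, with 4 above the median of all genes. The list median was -0.23 (-0.43 with median-of-ratios factors, and -0.43 to 0.09 as each library was left out). The 1 member with an unadjusted limma p under 0.05 was Acan. Sox9, the master factor of cartilage, was at 0.73 and Runx2, its bone counterpart, at 0.26, each with an unadjusted p above 0.05. The matricellular list had 5 positive and 15 negative of 20, with 5 above the median of all genes. Its list median was -0.22 (-0.50 with median-of-ratios factors). That median ran from -0.64 to 0.24 as each library was left out, so its sign turned. The fibrillar collagen list had 13 positive and 9 negative of 22, with 6 above the median of all genes and a list median of 0.08 that became -0.20 with median-of-ratios factors. The proteoglycan list had 14 positive and 6 negative of 20, with 6 above the median of all genes and a list median of 0.14 that became -0.14. Chad, a chondrocyte adhesion protein, was at 83.1 to 288 units in CON and 43.9 to 454 in HT. It was at 20.7 to 96.4 in HC and 8.62 to 37.9 in HC/HT, so each hypertension effect had overlapping groups. Its interaction was -1.14 ± 1.08.

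Of the other negative genes of smallest p, Syt17, a synaptotagmin, had an interaction of -1.77, Sncg, a synuclein, of -1.77, and Homer2, a scaffold of glutamate receptors, of -1.64. Plcxd3 was at -1.28, the trafficking adaptor Tom1l1 at -1.15, the BMP-binding secreted protein Vwc2 at -1.35, and Stra6l at -1.23. For Tom1l1 the HC/HT libraries were at 2.74, 2.06 and 2.45 units and all others at 5.09 or more. Stra6l was near 0 in CON, at 0.196 units or less, and at 3.92 to 9.89 in HC, with 1.67 units or less in HT.

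Among the positive genes, 3 turned direction without overlap: every HT library lay below every CON library and every HC/HT library above every HC library. These were Samd1, Slc25a42 and Klhdc9, 3 of 15004 genes (0.02%), and 0 genes (0%) turned the other way. Leaving out 1 library gave 3 to 15 such genes, with 15 without HT replicate 4 or HC/HT replicate 1, as fewer libraries leave more genes without overlap. Samd1 (chr8:83997516-84000415), a protein that binds unmethylated CpG islands, was at 4.41, 6.27, 8.42 and 5.00 units in CON, 4.21, 0.882, 3.72 and 2.15 in HT, 5.98, 4.90, 1.08 and 4.41 in HC, and 13.5, 7.15 and 9.11 in HC/HT. Its interaction was 2.07 ± 0.64 (SE; 95% interval 0.76 to 3.38; unadjusted p = 0.00305). Slc25a42, a mitochondrial carrier of coenzyme A, had an interaction of 1.61 ± 0.57 (unadjusted p = 0.00878). It was at 0.882 to 2.84 units in HT, 3.82 to 6.27 in CON, 1.67 to 3.53 in HC and 4.21 to 4.70 in HC/HT. Klhdc9 stayed at 3.23 units or less in all libraries, with an interaction of 1.55 ± 0.52 (unadjusted p = 0.00596).

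Smtnl2 (chr11:72389163-72411713), a smoothelin-like protein of muscle, was at 23.5, 36.8, 14.4 and 15.1 units in CON, 11.4, 6.95, 3.23 and 8.82 in HT, 22.3, 13.9, 11.1 and 8.23 in HC, and 12, 14.8 and 17.0 in HC/HT. HT lay wholly below CON, and HC/HT lay inside the HC range. Its interaction was 1.76 ± 0.56 (SE; 95% interval 0.61 to 2.90; unadjusted p = 0.00384). Notch3, the Notch receptor of mural cells, was at 1.57 to 2.64 units in HT, 4.02 to 5.49 in CON, 1.08 to 6.07 in HC and 5.49 to 8.62 in HC/HT (1.62 ± 0.59; unadjusted p = 0.00966). Slx4, a scaffold of DNA repair nucleases, was at 15.7 to 31.1 units in CON and 8.82 to 21.4 in HT, which overlapped. It was at 14.3 to 22.3 in HC and 25.2 to 36.9 in HC/HT (1.43 ± 0.49; limma unadjusted p = 0.00704). The glutamate receptor subunit Gria4 was at 3.13 to 7.44 units in CON, 0 to 2.55 in HT, 2.35 to 5.49 in HC and 1.96 to 3.62 in HC/HT (1.72 ± 0.62; unadjusted p = 0.00909). Asap3, Gdpd5, Cacng7 and Nacad stood at 1.75, 1.78, 1.86 and 1.61.

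Cholesterol synthesis genes had mostly positive interactions. They are switched on together by the factor Srebf2 when a cell's sterol falls, through a sterol regulatory element with the core CACCCCAC. The 250-base window before the start of Hmgcs1, the synthase that makes HMG-CoA, is printed as 1 of 2 listed genes that hold this core, in capitals (RefSeq, GRCm38.p6, chr13:119690101-119690350, plus strand).
Hmgcs1: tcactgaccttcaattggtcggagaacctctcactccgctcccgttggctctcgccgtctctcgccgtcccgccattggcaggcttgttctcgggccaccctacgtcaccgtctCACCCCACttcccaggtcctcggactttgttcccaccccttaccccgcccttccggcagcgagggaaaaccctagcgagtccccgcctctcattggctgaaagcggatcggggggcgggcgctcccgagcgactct
The core began 136 bases before the start. On both strands (CACCCCAC or GTGGGGTG) it was found in 846 of 32851 windows of all genes (2.575%). Counted by gene, which is not a like measure, 2 of the 17 listed genes with a window held it, Acat2 and Hmgcs1. The search covers these letters in this window alone.

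Of 25 listed genes 24 were tested, 22 positive and 2 negative and 20 above the median of all genes, with a median interaction of 0.75 (0.49 with median-of-ratios factors). None passed the adjusted test. An unadjusted limma p under 0.05 was reached by Tm7sf2, a sterol reductase, at 1.52 ± 0.64 (unadjusted p = 0.0239), from levels of 6.37 units or less. The median hypertension effect was 0.33 with ApoE intact and 0.97 in knockouts.

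Insig1, which holds back the sterol sensor, was at 27.6, 23.5, 22.8 and 9.50 units in CON, 36.5, 10.7, 44.4 and 14.2 in HT, 26.4, 18, 22.3 and 17.2 in HC, and 140, 67.1 and 13.3 in HC/HT. HC/HT replicates 1 and 2 lay above every other library, and replicate 3 below every HC library. Its interaction was 0.91 ± 0.91 (SE; 95% interval -1.05 to 2.88). Hmgcs1 had an interaction of 0.91 and Sqle of 0.69. The list's mean log2 level was 5.10, 4.47 and 3.00 in HC/HT replicates 1 to 3, against 2.97 to 3.39 in HC, 2.45 to 3.44 in CON and 3.82, 2.51, 3.97 and 2.75 in HT replicates 1 to 4. HC/HT replicate 3 lay within the HC range. The list median ran from 0.30 to 1.34 as libraries were left out. Pdgfb, a growth factor of mural cells, was high in the same libraries, at 105 units in HC/HT replicate 1 and 47.4 in HT replicate 3. Its hypertension effects were 1.46 and 1.41 and its interaction was -0.05 ± 0.86.

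**Figure D4:**
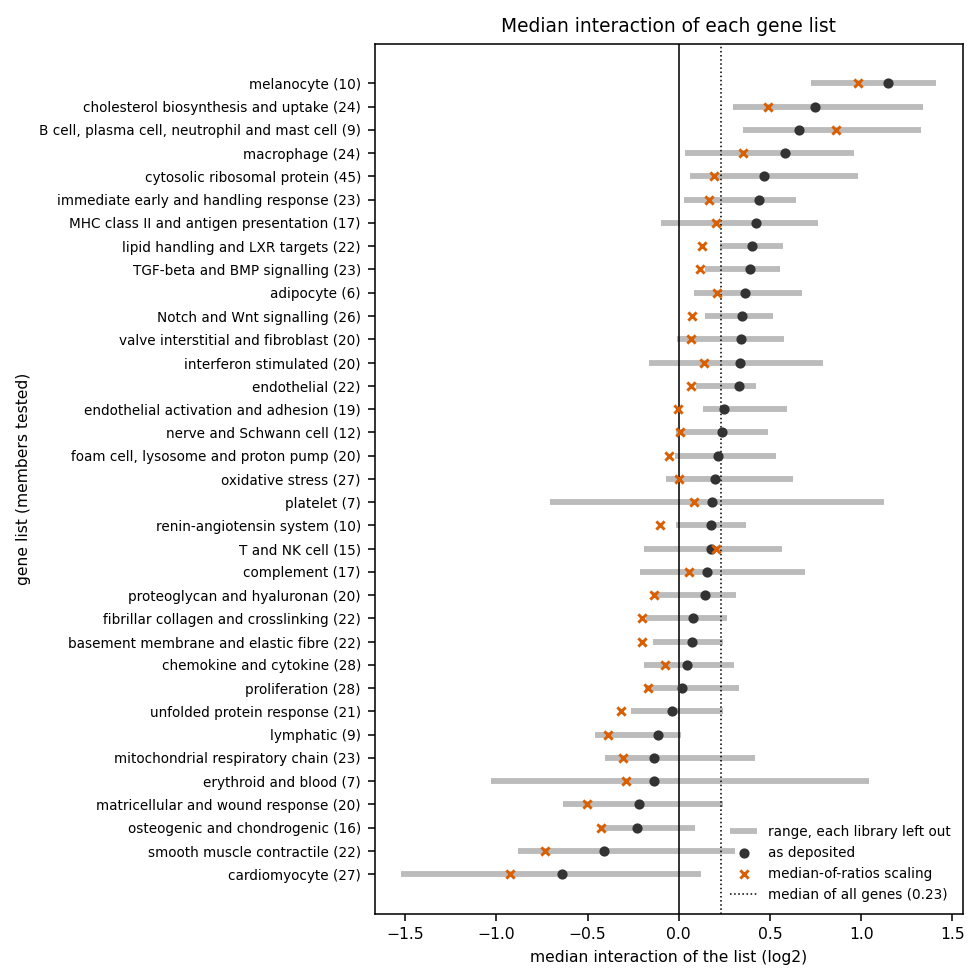
Median interaction (log2) of each gene list, as deposited (points), with median-of-ratios factors (crosses) and over fits that each leave out 1 library (grey bars); the dotted line is the median of all genes at 0.23 and the members tested are in brackets. Melanocyte genes lie highest at 1.15 and cardiomyocyte genes lowest at -0.64, with a grey bar that spans 0.

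Macrophage genes had higher list levels in both knockout groups, and none of them was called non-additive. Of 24 listed genes 21 were positive and 3 negative and 18 were above the median of all genes, with a list median of 0.59 (0.35 with median-of-ratios factors), and 0 reached an unadjusted p under 0.05. The list's mean level was 4.51 to 5.02 in CON, 2.698 to 5.42 in HT, 5.97 to 6.82 in HC and 5.70 to 6.28 in HC/HT. The HT group held both the highest and the lowest non-knockout library. The list median ran from 0.03 to 0.96 as libraries were left out. Laptm5, a lysosomal protein of leukocytes, had an interaction of 1.02 ± 0.59, Msr1, a scavenger receptor, of 1.17 ± 0.73, Lyz2 (lysozyme) of 1.05 ± 0.72 and Cd68 of 0.65 ± 0.58.

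The foam cell, lysosome and proton pump list had 14 positive and 6 negative of 20, from -1.28 to 0.56, with 9 above the median of all genes and a list median of 0.22 (-0.06 with median-of-ratios factors). Single genes of foam cells and resident macrophages are given by their levels. Trem2, a lipid receptor of foam cells, had an interaction of 0.60 ± 0.62. Cd5l, a macrophage survival protein, was at 20.5 to 54.3 units in HC and 25.4 to 32.7 in HC/HT, against 1.96 or less in CON and HT, with an interaction of 0.24 ± 0.61 (SE). Gpnmb was at 244 to 716 units in HC and 237 to 437 in HC/HT (0.33 ± 0.65). Abcg1, the cholesterol exporter induced by LXR, was at 57.1 to 96.2 units in HC and 55.4 to 57.7 in HC/HT (-0.10 ± 0.53; 95% interval -1.19 to 0.98). Abcg1's additive level was 64.1 units against an observed 56.6. Lyve1, a marker of resident vessel macrophages and lymphatics, was at 29.5 to 54.0 units in CON, 3.23 to 21.4 in HT, 2.55 to 20.7 in HC and 0.392 to 1.76 in HC/HT. Its interaction was -0.53 ± 0.81, and the additive level of 2.09 units compares with 0.967 observed.

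Heart muscle genes had the lowest list median, and its sign depended on single libraries. Of 28 listed genes 27 were tested, 4 positive and 23 negative, with 3 above the median of all genes. The list median was -0.64 (-0.92 with median-of-ratios factors), and 0 members had an unadjusted limma p under 0.05. The list's mean level was 3.66 to 6.38 in CON, 2.47 to 7.12 in HT, 2.27 to 4.97 in HC and 1.92 to 3.16 in HC/HT. HT replicate 2, at 7.12, was the highest of all 15 libraries for 20 of 27 members. The list median was 0.12 without HT replicate 2, 0.11 without HC replicate 2, and ran from -1.52 to -0.12 as each of the other libraries was left out. Nppa, the atrial natriuretic peptide, was at 1953 units in HT replicate 2 and at 166 or less elsewhere (interaction -2.23 ± 2.72). Ryr2, the calcium release channel of heart muscle, was at 298 units there and at 3.13 to 5.09 in HC/HT (-2.43 ± 1.42).

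The 9 genes that limma called in females alone were Casq2, Hrc, Klhl31, Myh6, Myl4, Myl7, Ryr2, Trdn and Ttn, named after their values were seen, and all are expressed in striated muscle. Their interactions in females ran from -5.19 (Hrc; limma adjusted p = 0.00141) to -3.54 (Ttn; adjusted p = 0.0457). HT replicate 2, a female, was the highest of all libraries for 9 of 9, and CON holds 1 female. Without it, females alone gave 0 calls and 121 genes with an unadjusted p under 0.05, with -3.13 for Ryr2 (adjusted p = 1.00) and -3.71 for Casq2. That fit holds 1 CON and 1 HT library, whose spread is taken from HC and HC/HT, so its 0 calls say little of stability. In all 15 libraries the same 9 genes had unadjusted p-values from 0.116 (Ryr2) to 0.510 (Myl4). Smooth muscle genes had 8 positive and 14 negative of 22, with 6 above the median of all genes. Their list median was -0.41 (-0.74 with median-of-ratios factors) and ran from -0.88 to 0.31 as each library was left out. Myl9, a myosin light chain, was at 74.5 to 230 units in CON, 12 to 102 in HT, 5.49 to 67.7 in HC and 2.64 to 7.25 in HC/HT (-0.68 ± 1.13). Its additive level was 7.10 units against 4.86 observed. Acta2 was at -0.78 ± 1.80 and Mylk at 0.35 ± 0.71. The part of attached heart or vessel muscle in these values was not tested.

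**Figure D5:**
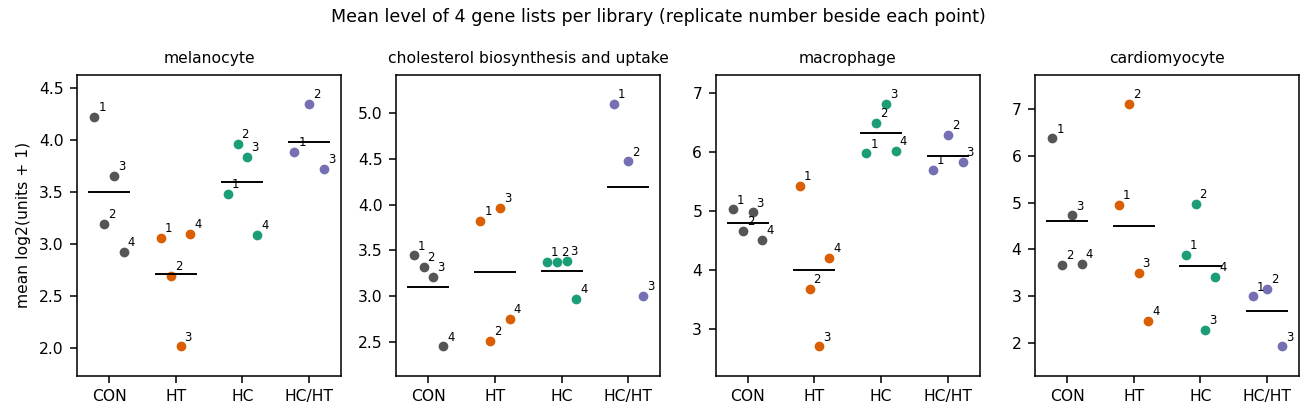
Mean log2(units + 1) of the melanocyte, cholesterol synthesis, macrophage and cardiomyocyte lists in each library, with replicate numbers beside points and group means as lines. HT replicate 2 stands at 7.12 for cardiomyocyte genes, and HC/HT replicates 1 and 2 stand at 5.10 and 4.47 for cholesterol genes while replicate 3 is at 3.00.

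Ribosomal protein genes were positive in 45 of 45, against 71.8% of all genes, and 38 were above the median of all genes. The list median was 0.47 as deposited, 0.06 to 0.98 as each library was left out, and 0.19 with median-of-ratios factors, where 37 were positive. None had an unadjusted p under 0.05. Rpl10a was at 197 to 424 units in CON, 94.7 to 310 in HT, 207 to 433 in HC and 192 to 273 in HC/HT (0.54 ± 0.50). The list's level followed the libraries, from 5.13 in HT replicate 3 to 8.14 in HC replicate 1.

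The lists of signalling genes of the hypertension model and of fibrosis held 1 gene with an unadjusted p under 0.05, Notch3. The renin-angiotensin list had 10 of 17 members tested, 7 positive and 3 negative and 4 above the median of all genes, with a list median of 0.18 that became -0.10 with median-of-ratios factors. Ace, the angiotensin-converting enzyme, was at 57.2 to 203 units in CON, 85.3 to 296 in HT, 131 to 221 in HC and 136 to 232 in HC/HT (0.06 ± 0.58; 95% interval -1.14 to 1.26). Agtr1a, the angiotensin II receptor, stayed at 5.09 units or less. The TGF-beta and BMP list was positive in 19 of 23, against 71.8% of all genes, with 14 above the median of all genes. Its median was 0.39, and 0.12 with median-of-ratios factors, where 13 were positive. The Notch and Wnt list was positive in 20 of 26, near the share of all genes, with 17 above their median. Its median was 0.35, and 0.07 with median-of-ratios factors, where 16 were positive. Tgfb1 was at 0.53 ± 0.59, Smad6, an inhibitor of BMP signals, at 0.75 ± 0.52, and Wnt4 at 0.76 ± 0.55. The adhesion molecule Vcam1 was at -0.25 ± 0.61.

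Of 26 genes set by name 1 had an unadjusted limma p under 0.05, beside 207 of 15004 genes tested (1.38%). The 26 were chosen with earlier results of these data known, so this p is a description and no independent support. The 1 gene was Aldh3a1, an aldehyde dehydrogenase. It was at 11.5, 8.91, 7.74 and 7.05 units in CON and 1.57, 1.76, 0.588 and 1.47 in HT, 9.89, 4.60, 3.23 and 5.88 in HC, and 3.92, 4.31 and 2.25 in HC/HT. HT lay wholly below CON, and HC/HT overlapped HC. Its interaction was 1.56 ± 0.59 (SE; 95% interval 0.36 to 2.77; limma unadjusted p = 0.0126). Apoe had an interaction of 1.95 ± 0.95 (unadjusted p = 0.0626). It compares reads left in the knockouts, at 12.3 units or less, with the HT and CON levels, and says little of additivity.

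For some genes the interval was narrow enough to limit a departure. It lay between -1 and 1 for 336 of 15004 genes (2.24%) as deposited and for 3487 with median-of-ratios factors. With those factors the median interaction was -0.01, against 0.23 as deposited. Totals without the 4 most abundant rows had a median of 0.13 and gave 3204 genes. The fit without the 3 libraries of lowest correlation had a median of 0.00 and gave 69, from fewer libraries than the others. What changed the count was not tested. Without any 1 library other than CON replicate 4, HC replicate 4 or HT replicate 2, the count as deposited was 10 to 204. Without HT replicate 2 it was 673. These genes were abundant, with a median level of 54.8 units against 11.6 for all tested. Of 2233 genes with a mean of at least 50 units, 180 were so limited as deposited and 1399 with median-of-ratios factors.

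The limited genes, named here after their values were seen, include main matrix genes of the valve. With median-of-ratios factors Vcan, the proteoglycan versican, had an interaction of -0.15 (95% interval -0.92 to 0.61), and Postn, periostin, of 0.04 (-0.75 to 0.82). Hspg2, perlecan, was at 0.00 (-0.73 to 0.73), Prelp at -0.12 (-0.97 to 0.73), and Col5a1 at -0.15 (-0.76 to 0.46). Of the TGF-beta and BMP list 12 of 23 genes were limited with these factors and 1 of 23 as deposited. Over all genes the counts were 3487 of 15035 and 336 of 15004, and over the 2233 genes of at least 50 units 1399 and 180. Some of the list's limited genes lie below 50 units, such as Bmp6 at 20.8. The 12 include the receptors Tgfbr1, at 0.12 (-0.49 to 0.72), and Bmpr2, at -0.19 (-0.91 to 0.52). The endocytic receptor Lrp1 was at 0.03 (-0.59 to 0.66) and the valve factor Tbx20 at 0.08 (-0.71 to 0.88). As deposited 0 genes of the matricellular, proteoglycan and fibrillar collagen lists were limited. Postn was then at 0.32 ± 0.58 (95% interval -0.87 to 1.51), Col1a1 at -0.25 ± 0.51, Col3a1 at -0.45 ± 0.69 and Fn1 at -0.55 ± 0.58.

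None of the 24 macrophage or 24 cholesterol synthesis genes tested was limited to -1 to 1 under either scaling, and of the pigment genes 1 of 10 was with median-of-ratios factors. Over all genes 336 of 15004 (2.24%) were limited as deposited, and 3487 of 15035 with median-of-ratios factors. For the lists named here the data leave departures of more than 1 log2 unit undecided.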

How the data were processed

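Aortic valve RNA of 15 mice in 4 groups was used. The deposited values are a score: whole numbers that the authors call normalised counts, in 1 table. Tools in the submitters' processing notes are Bowtie 1.0.1, SAMtools 0.1.9 and FastQC 0.11.2, with edgeR (no version) and the build mm10. How values were normalised is not given in the sources used. Per the labels' protocols, cDNA was amplified with Nugen Ovation v2 from 1 ng of total RNA. Deposited totals lie between 10207928 and 10210305, so sequencing depth is unknown and no counting interval is given. 1 column without a header name was not used. Of the row names 17944 matched a current symbol, 844 an older symbol and 2204 none, and the last stayed in the fit.

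All values were multiplied by 0.0979537, which sets the median total to 1000000 units. Genes reaching 1 unit in 4 or more libraries were tested on log2(units + 1), so fold changes of low genes are understated. limma 3.58.1 in R 4.3.3 (eBayes with trend and robust) fitted group and sex over 15 libraries, with 2-sided p-values adjusted by Benjamini-Hochberg over 15004 genes. The code was tested on simulated data with independent noise and planted interactions far larger than those of most genes here. That check does not show whether departures of the size seen here would be found. Summaries used Python 3.11.15, and gene positions are GENCODE's on GRCm38.

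Named genes are the 12 of smallest interaction p per direction, with a symbol and a highest group mean of at least 5 units, up to 8 that turn direction without overlap, 2 per described list and 26 set by name, of which some are not reported here. The genes, lists and tests were chosen with earlier results of these data known. Alternatives were other scalings, pseudocounts and filters, no sex term, a replicate block, array weights, a plain eBayes (no trend, not robust), a threshold of 0.1 on the adjusted p, females alone (with and without HT replicate 2, the latter chosen after seeing the data), leaving out the 3 libraries of lowest correlation, and leaving out each library.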

Additional observations from a re-analysis of the deposited data

Results flagged for a closer look

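In 11 of 213 groups of 4 libraries looked at, 1 library stood apart from the other 3 (gap over range above Dixon's 95% value). Chance gives about 1 in 20, so this number is near what chance alone would give. The 11 touch several genes of the interaction. Acan stood apart at 7.54 units in HT replicate 1 and at 0.882 in HC replicate 1, Nacad at 1.37 in HC replicate 2, Stra6l at 0.196 in CON replicate 3 and Trpm1 at 8.23 in HT replicate 4. Casq2 did so at 17.2 units in CON replicate 1, Smad4 at 19.3 in CON replicate 4, Mcpt4 at 7.44 in HT replicate 1 and Agtr1a at 5.09 in CON replicate 3. Lyve1 did so at 2.55 units in HC replicate 4 and Acta2 at 42.5 in HT replicate 3.

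For 3 of 15004 genes (0.02%) every HT library lay below every CON library, and every HC/HT library lay above every HC library. Their interactions were 2.07 for Samd1, 1.61 for Slc25a42 and 1.55 for Klhdc9. The difference was tested with limma and did not pass after adjustment (adjusted p = 1.00 for each).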

How the results depend on the processing

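The interaction called 0 genes under all alternatives run except females alone, which called 9, and 0 in every fit that left out 1 library. The replicate numbers were not taken to pair the mice: deviations of the 21 same-number pairs correlated from -0.25 to 0.49 (median 0.09), 10 of them over 0.1, against 13 of 63 other pairs (median -0.03), and 4 of 15 libraries correlated best with their own number. With a replicate block the interaction called 0 genes, and HT minus CON and HC/HT minus HC called 1 each. Array weights called 412 and 2, and females alone 5 and 3. Leaving out 1 library gave 0 to 2 calls for HT minus CON and 0 to 3 for HC/HT minus HC. The cause of these changes was not tested. The count of genes with an interval between -1 and 1 was 336 as deposited. It was 3559 with quantile normalisation, 3487 with median-of-ratios factors, 3204 without the 4 most abundant rows in the totals, 4926 with a pseudocount of 4 and 4983 with no filter. It was 962 with array weights, 565 with no sex term, 87 without trend and robust, 69 without the 3 libraries of lowest correlation with the rest (HC/HT replicate 2, HT replicates 2 and 3) and 0 with females alone, with or without HT replicate 2. Leaving out 1 library gave 10 to 673. Genes turning direction numbered 1 with a filter at 5 units, 27 without those 3 libraries, and 3 to 15 with 1 library left out. That count was recomputed under alternatives that change values, genes or libraries, not for females alone. Of the values for single named genes under the alternatives, 1961 moved by less than the spread between mice and stayed on their side of the threshold, 67 moved further, and Ryr2 and Casq2 passed in females alone. Unknown depth limits genes of few units most.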

Other observations

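Some lists with no place in the comparisons above had wide library effects. The platelet list stood at a mean log2 level of 6.79 in CON replicate 4 and between 1.82 and 3.43 in the other 14 libraries, and its median interaction ran over both sides of 0 as libraries were left out. The erythroid and blood list stood at 7.34 in the same library and at 7.68 in HC replicate 1, with 0.79 in HT replicate 4. The unfolded protein response list, which covers chaperones of the endoplasmic reticulum, had a median interaction of -0.04 (-0.31 with median-of-ratios factors), and the mitochondrial respiratory chain list of -0.14 (-0.30). The interferon-stimulated list had a median of 0.34 (0.14), with a level of 5.72 in HT replicate 1 and 2.38 in HT replicate 3.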
